A study of Mus musculus with 8 samples.

Results

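Sterol and fatty acid synthesis is carried out by a chain of enzymes whose genes are regulated together. SREBP-2, encoded by *Srebf2*, and SREBP-1, encoded by *Srebf1*, are membrane-bound transcription factors of the endoplasmic reticulum, which SCAP escorts to the Golgi when sterols are scarce and which INSIG proteins retain when sterols are plentiful. The released factors bind sterol regulatory elements (SREs) in promoters and act there together with NF-Y, a trimeric factor that binds the pentamer CCAAT through its subunit NF-YA. NF-YA binding was examined here at 56 genes of these pathways, listed by symbol, by taking every NF-YA peak whose assigned gene symbol equals one of them. The list holds regulators, the enzymes of mevalonate, prenyl and squalene synthesis and those from squalene to cholesterol, sterol carriers, and genes for fatty acid synthesis, desaturation, elongation, activation and incorporation into lipids. Of 7196 NF-YA peaks in the series, 50 were assigned to 35 of the 56 genes.

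The peaks come from CUT&RUN, in which a nuclease tethered to an antibody on chromatin releases the DNA next to the bound protein. Muscle stem cells (MuSCs), which regenerate muscle fibres, were taken from adult C57BL/6 mice by cell sorting and expanded in culture, where they were activated and proliferating. Control cells were compared with Taf4asKO cells, from animals with floxed *Taf4a* alleles and a tamoxifen-inducible Cre recombinase under *Pax7*, a gene of MuSCs. *Taf4a* encodes a subunit of the general transcription factor TFIID, and its deletion removes part of the gene rather than the whole locus. Each genotype had 2 NF-YA libraries, and IgG libraries of both genotypes were not analysed here. The labels do not say whether libraries of a genotype came from separate animals or cultures, so p-values measure the spread between these libraries, which may be technical.

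Values are the authors' normalised reads in each peak, rounded to whole numbers. The reads behind them in all peaks were estimated at 351735 and 111305 in control replicates 1 and 2, and at 735128 and 505382 in Taf4asKO replicates 1 and 2. Both control libraries thus had fewer reads than both Taf4asKO libraries, and this difference and genotype cannot be told apart. A peak 1190 bases from the *Taf4* start, the symbol under which the table lists *Taf4a*, had values of 99 and 117 in control libraries and of 13 and 18 in Taf4asKO libraries. Another, 248 bases from it, had 14 and 20 in control libraries and 10 and 14 in Taf4asKO libraries, and the third had 8 and 10 against 5 and 5. These peaks lie near the start, so they are no check of the deletion itself.

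The sequences below show how CCAAT lies in a selection of these peaks, including the strongest one and those where it accompanies an SRE. Some strong peaks, such as that of *Idi1*, are not printed. Each is read along the strand of its gene, 5′ to 3′, on GRCm38 (mm10), and capitals mark CCAAT, its reverse complement ATTGG and, where named, the SRE. The strongest peak lay upstream of *Agpat1*, which encodes an acyltransferase of glycerolipid synthesis. Its printed stretch, at chr17:34603868-34604013, holds 3 copies of ATTGG, and the whole peak holds 10 copies of CCAAT or ATTGG. The *Mvk* stretch, at chr5:114444137-114444268, lies upstream of the gene for mevalonate kinase and holds 4 copies in both directions. *Hmgcs1*, for the synthase that makes HMG-CoA, has 3 ATTGG copies and the SRE TCACNCCAC at chr13:119690071-119690290. Its peak holds 5 copies, of which the printed stretch shows these 3. *Elovl6*, for a fatty acid elongase, has 2 CCAAT copies and the same SRE on the opposite strand inside an intron, at chr3:129536335-129536457. *Mvd* at chr8:122443433-122443494, for the decarboxylase of the mevalonate pathway, *Chka* at chr19:3851679-3851761, for choline kinase, and *Insig1* at chr5:28071957-28072080 show paired or triple copies. The *Scd2* stretch at chr19:44284306-44284373 is from a peak upstream of this desaturase gene that had the most negative fold change of all tested peaks of the list.
Agpat1: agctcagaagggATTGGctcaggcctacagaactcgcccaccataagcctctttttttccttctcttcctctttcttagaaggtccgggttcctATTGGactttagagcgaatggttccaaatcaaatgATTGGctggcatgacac
Mvk: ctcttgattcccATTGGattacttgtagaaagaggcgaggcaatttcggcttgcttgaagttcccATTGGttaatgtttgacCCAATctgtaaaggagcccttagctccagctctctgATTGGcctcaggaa
Hmgcs1: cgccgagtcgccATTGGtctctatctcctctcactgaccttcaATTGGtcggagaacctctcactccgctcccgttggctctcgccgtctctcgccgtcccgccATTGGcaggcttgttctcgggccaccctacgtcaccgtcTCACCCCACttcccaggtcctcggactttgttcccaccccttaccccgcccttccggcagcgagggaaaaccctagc
Elovl6: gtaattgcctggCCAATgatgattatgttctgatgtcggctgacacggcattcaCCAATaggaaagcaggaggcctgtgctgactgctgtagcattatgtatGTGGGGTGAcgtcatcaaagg
Mvd: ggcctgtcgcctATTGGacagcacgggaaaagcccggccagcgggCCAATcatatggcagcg
Chka: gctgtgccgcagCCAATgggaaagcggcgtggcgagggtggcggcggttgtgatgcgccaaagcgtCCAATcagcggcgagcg
Insig1: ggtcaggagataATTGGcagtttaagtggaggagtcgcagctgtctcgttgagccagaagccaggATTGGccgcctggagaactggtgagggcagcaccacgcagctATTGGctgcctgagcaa
Scd2: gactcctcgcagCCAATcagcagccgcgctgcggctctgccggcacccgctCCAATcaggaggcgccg

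The counts of genes with an assigned peak are given by role, and differences between roles were not tested. Of the genes for mevalonate, prenyl diphosphate and squalene synthesis, which include the branch enzyme gene *Ggps1* and the mitochondrial thiolase gene *Acat1*, 9 of 10 had a peak, the exception being *Pmvk*, for phosphomevalonate kinase. Among enzymes from squalene to cholesterol, 8 of 10 genes had one, and *Cyp51*, for lanosterol demethylase, and *Sc5d*, for sterol C5-desaturase, had none. Desaturases and elongases had peaks at 7 of 8 genes, with none at *Fads3*. No peak was assigned to *Fasn*, for fatty acid synthase, or to *Acaca* and *Acacb*, for the acetyl-CoA carboxylases, although an unassigned peak lay 272 bases from an annotated *Acaca* start. Of the 5 regulators, *Srebf2* and *Insig1* had peaks and *Srebf1*, *Scap* and *Insig2* had none.

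The remaining roles were covered in part. The sterol carriers *Stard4* and *Npc2* had peaks and *Npc1* had none. Of 5 genes for supply of acetyl-CoA and NADPH or its control, *Acly* and *Pgd* had peaks, and *Acss2*, *Me1* and *Thrsp* had none. Peaks were assigned to *Acsl3* but not to *Acsl1* or *Acsl4*, which all encode acyl-CoA synthetases, and to *Agpat1* and *Gpam* but not to *Agpat3*, *Lpin1*, *Lpin2* or *Lpin3* among glycerolipid genes. In phospholipid synthesis *Chka* and *Pcyt2* had a peak and *Pcyt1a* had none. The 35 genes with a peak made up 62.5% of the list (95% Wilson interval 49.4% to 74.0%), and 34 of them had a peak with a mean value of at least 10. Over all 21951 protein-coding genes of GENCODE M21 the share with an assigned peak was 14.6%. The list was chosen with earlier results of these data known, so the comparison only describes it. The interval treats its genes as a random sample, which they are not.

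**Figure D1:**
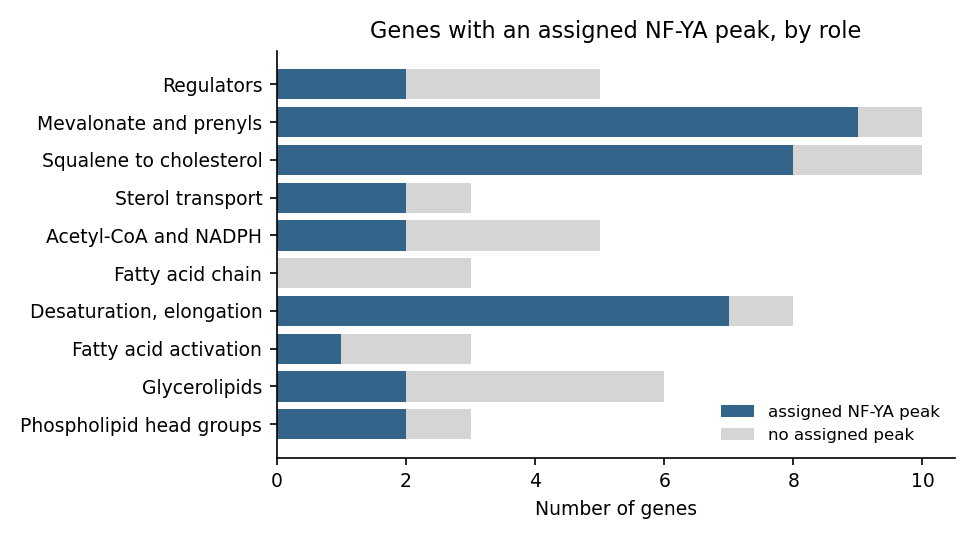
Number of genes of the list (horizontal axis) with an assigned NF-YA peak (blue) and without one (grey), for 10 roles in the pathways. Peaks were assigned to 9 of 10 genes of mevalonate and prenyl synthesis and to 0 of 3 genes of the fatty acid chain, where 1 unassigned peak lay near an *Acaca* start.

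Absence from the assigned peaks does not always mean that no peak lay nearby. The unassigned peak near *Acaca* had values of 62 and 59 in control libraries and 48 and 50 in Taf4asKO libraries, and held CCAAT. Other unassigned peaks lay 2229 bases from a start of *Agpat3*, with a mean of 57.2, and 1886 bases from a start of *Lpin1*, with a mean of 11.2. For *Fasn* the nearest peak was 64480 bases away, although the 150 bases before its RefSeq start (GRCm38.p6, chr11:120824548-120824697, minus strand) hold CCAAT and ATTGG, overlapping in one place. This sequence is shown because the pentamer is present and no peak was assigned.
Fasn: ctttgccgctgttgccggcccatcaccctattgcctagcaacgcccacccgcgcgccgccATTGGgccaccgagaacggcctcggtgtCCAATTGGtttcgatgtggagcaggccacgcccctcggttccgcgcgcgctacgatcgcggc

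RefSeq promoters, from 250 bases before to 50 after each start, were matched by symbol for 46 of the 56 genes. CCAAT or ATTGG was found in a promoter of 23 of 26 matched genes with a peak and of 13 of 20 matched genes without one. Among all 27025 genes in the promoter table the share was 41.1%. *Srebf1*, *Cyp51*, *Sc5d* and *Acss2* were among the genes that hold the letters and had no assigned peak.

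Where NF-YA peaks were present, many were strong. The strongest peak of each gene, called its main peak here, had a median mean value over the 4 libraries of 107. For the strongest peak of each of the 3183 genes that the table names by symbol it was 46.0. Of the 35 main peaks, 13 were in the top 10% of all peaks (37.1%, against 20.3% of those 3183), which began at 124. In the top 25%, which began at 52.5, were 26 (74.3%, against 46.2%). Over all 50 peaks of the list the median was 78.5, and over all 7196 peaks 17.2. The *Agpat1* peak ranked 6 among all peaks. Of the 35 main peaks, 33 were centred within 1000 bases of an annotated start of their own gene (94.3%), as were 78.1% of the strongest peaks of those 3183 genes. At a mean of 100 or more, 85.4% of all tested peaks lay so near their gene's start. Of the 33, 26 were centred from 200 bases upstream to the start itself (78.8%). The corresponding share over all 3016 peaks within 1000 bases of their gene's start was 64.9%.

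CCAAT or its reverse complement was found in most of these peaks, as in most peaks of the series. Of the 50 peaks, 43 held it in their central 200 bases (86.0%, 95% Wilson interval 73.8% to 93.0%), compared with 78.5% of all peaks. Of the 40 peaks whose mean was 10 or more, 39 held it there, and the exception was *Idi1*, for isopentenyl diphosphate isomerase, whose peak held 5 copies farther from its centre. Among all 4746 peaks above this minimum 85.3% held it. Of the 10 peaks of the list below this minimum, 4 held it.

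Copies of CCAAT often came in groups. At least 2 copies lay in the central 200 bases of 18 of the 20 peaks whose mean was 100 or more, and of 71.2% of all 971 peaks of this strength. Among the peaks of this strength with several copies, the smallest distance between the starts of neighbouring copies ran from 7 bases at *Idi1* and 17 at *Mvk* to 61 at *Hsd17b7* and 69 at *Npc2*, with 31 at *Hmgcs1* and at *Stard4*. It was from 25 to 60 bases in 15 of these 19 peaks (78.9%), and in 62.4% of 817 such peaks overall. Read along the gene, the copy nearest the centre was ATTGG in 21 of the 33 main peaks at starts and in 49.7% of all such peaks, and its median position was 54 bases upstream of the start, against 71 bases over all such peaks.

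**Figure D2:**
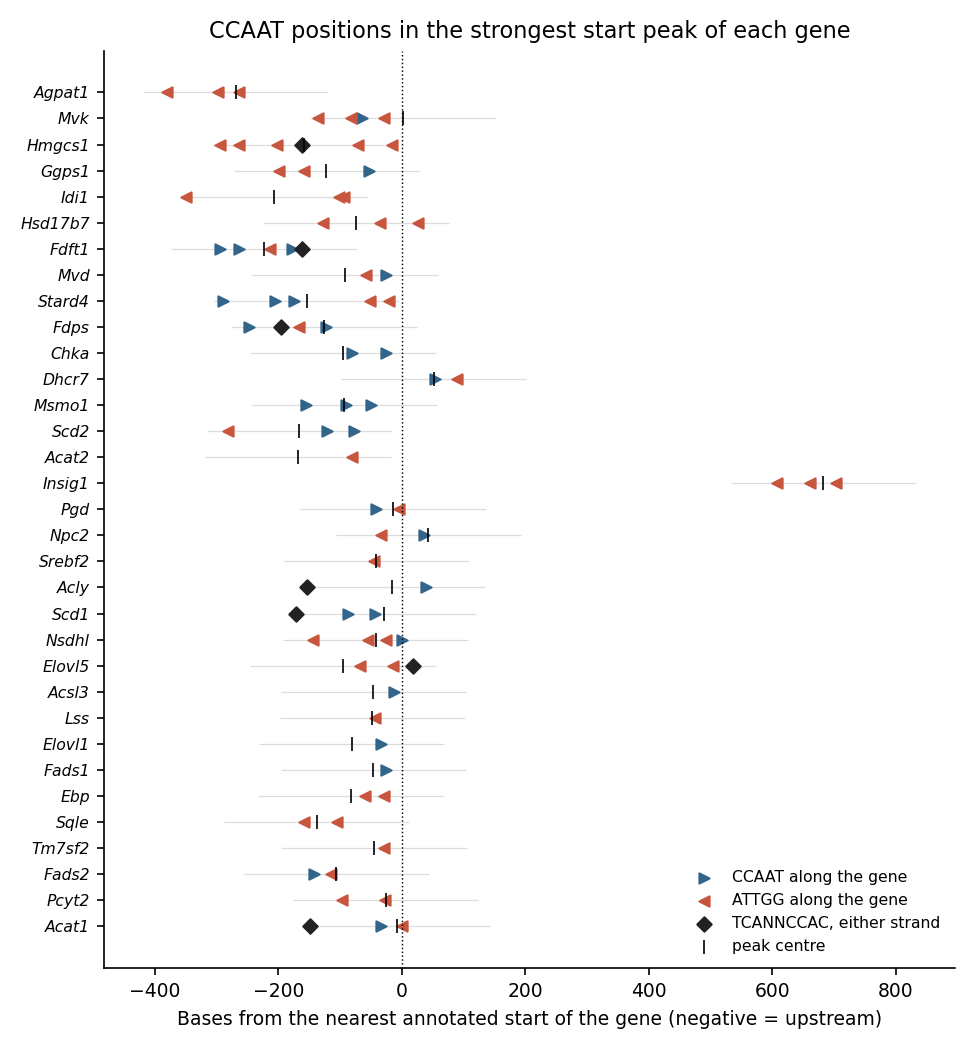
Position of CCAAT (blue, pointing right), ATTGG (red, pointing left) and TCANNCCAC (black diamonds) within 150 bases of the centre (tick) of 33 main peaks near their gene's start, in bases from the start along the gene, with the strongest peak on top. Most copies lie upstream of the start, and *Insig1*, 683 bases downstream, stands apart.

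The SRE letters TCACNCCAC, searched on both strands within 150 bases of the peak centre, were found in 2 of 50 peaks (4.0%, interval 1.1% to 13.5%) and in 1.47% of all peaks. These were the *Hmgcs1* peak, where the SRE lay 3 bases from the centre and 41 bases from the nearest ATTGG, and the *Elovl6* peak, with 50 bases between both. The looser letters TCANNCCAC, which include the first form, were found in 8 peaks (16.0%) and in 6.0% of all peaks, the others being at *Fdps*, *Fdft1*, *Scd1*, *Acly*, *Elovl5* and *Acat1*. SREs vary in sequence, and a window without these letters may hold other forms. GGGCGG, the core of the GC box bound by SP1, was found in the central 200 bases of 12 of the 20 strongest peaks and of 56.6% of all peaks with a mean of at least 100.

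To determine whether NF-YA occupancy at these genes differed without TAF4A, the 40 peaks with a mean of at least 10 were compared between genotypes with limma on log2(value + 1), fitted over all 4746 such peaks. None of the 40 passed an adjusted p of 0.05, where 0.948% of all tested peaks did. The lowest adjusted p of the list, in limma with Benjamini-Hochberg adjustment, was 0.110. Without adjustment, 10 of 40 had a limma p under 0.05, 9 with lower and 1 with higher values in Taf4asKO libraries. The share over all tested peaks, in either direction, was 17.9%. At any p, the log2 fold change was below 0 in 29 of the 40 and in 53.8% of all tested peaks. With a mean of at least 100 it was below 0 in 18 of 20 and in 84.7% of all 971. A fit that weights each value by its estimated reads passed 2 of the 40, the *Agpat1* main peak and the upstream *Scd2* peak (5.0%), and 7.37% of all tested peaks. With any 1 library left out, 0 of the 4746 peaks passed, in a design with 1 residual degree of freedom that leaves little room for a call. The log2 fold change of the main *Agpat1* peak then ran from −0.47 to −0.31, and that of 16 of the 25 peaks with the strongest signal or the most extreme fold changes moved by over 1.5 times.

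The values of these peaks were on the whole slightly lower in Taf4asKO libraries, as were those of other strong peaks. The median log2 fold change was −0.17 over the 40 peaks and −0.04 over all tested peaks. Among peaks whose mean was 100 or more it was −0.29 for the 20 of the list and −0.22 for all 971. In 17 of 40 peaks (42.5%) both Taf4asKO values were below both control values, against 28.6% of all tested peaks, and in 2 they were above, against 19.3%. At a mean of at least 100 the lower pattern was found in 15 of 20 and in 59.0% of all 971. The direction depended on scaling: centring the libraries on peaks whose mean was 100 or more shifted the median of all peaks by 0.23, and 16 instead of 29 of the 40 were then below 0. Summed over the 50 peaks, values were 5447 and 5476 in control libraries and 4396 and 4922 in Taf4asKO libraries, which was 1.48%, 1.51%, 1.39% and 1.43% of the summed value of all peaks.

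**Figure D3:**
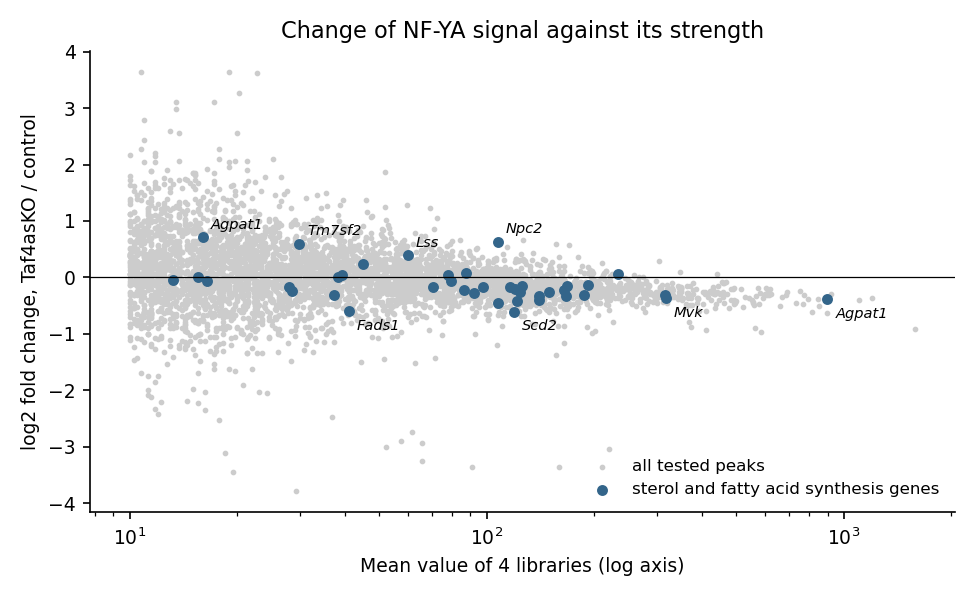
Log2 fold change of NF-YA signal (Taf4asKO over control, vertical axis) against the mean of 4 libraries (log axis) for 4746 tested peaks (grey) and 40 peaks of sterol and fatty acid synthesis genes (blue). The blue points run from −0.60 to 0.71 and the grey points from −3.79 to 3.64.

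At the regulators, the NF-YA values of both genotypes overlapped in all 3 peaks. *Insig1* had a peak in its intron, 683 bases downstream of the start, with values of 114 and 130 in control libraries and of 124 and 95 in Taf4asKO libraries. A further peak 109 bases upstream had 108 and 98 in control libraries and 86 and 98 in Taf4asKO libraries. No shift between the genotypes was detectable beyond the spread of the replicates in either. *Srebf2* had 88 and 114 in control libraries and 74 and 92 in Taf4asKO libraries in a peak centred 41 bases upstream of its start, with a log2 fold change of −0.28 ± 0.20 (SE, n = 2 per genotype).

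In the mevalonate pathway, *Mvk* and *Hmgcs1* had the strongest peaks. The *Mvk* peak (chr5:114444008-114444569), which also lies within 1000 bases of the start of *Mmab*, the gene for a cobalamin adenosyltransferase, had 373 and 342 in control libraries and 258 and 295 in Taf4asKO libraries. The log2 fold change was −0.37 ± 0.13 (SE, n = 2 per genotype). *Hmgcs1* (chr13:119689983-119690459), whose SRE and 3 of 5 ATTGG copies are printed above, had 337 and 359 in control libraries and 262 and 302 in Taf4asKO libraries. Both Taf4asKO values were lower in either peak, with a log2 fold change of −0.31 ± 0.13 for *Hmgcs1* (−0.20 without Taf4asKO replicate 1), and neither passed the test (limma adjusted p = 0.188 and 0.265).

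The decarboxylase gene *Mvd* (chr8:122443346-122443683) had 186 in both control libraries and 143 and 153 in Taf4asKO libraries. *Fdps*, for the enzyme that makes farnesyl diphosphate, had 180 and 147 in control libraries and 128 and 144 in Taf4asKO libraries. Neither group of values overlapped with its counterpart, with log2 fold changes of −0.33 ± 0.15 and −0.26 ± 0.17 (SE, n = 2 per genotype). Leaving out 1 library moved the *Fdps* value between −0.40 (without control replicate 2) and −0.11 (without control replicate 1). *Idi1* (chr13:8885447-8886026) had 216 and 186 in control libraries and 182 and 183 in Taf4asKO libraries, which left a small gap between the groups. *Acat2* (chr17:12960272-12960807), for a cytosolic acetoacetyl-CoA thiolase at the entry of the pathway, had 121 and 137 in control libraries and 103 and 120 in Taf4asKO libraries.

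Values overlapped at 2 further enzymes of prenyl and squalene synthesis. *Fdft1*, for squalene synthase, had 174 and 179 in control libraries and 141 and 178 in Taf4asKO libraries in a peak (chr14:63177835-63178206) that the table places 1557 bases from its start and that lies 223 bases upstream of another annotated transcript start. *Ggps1*, for geranylgeranyl diphosphate synthase, had 248 and 209 in control libraries and 225 and 248 in Taf4asKO libraries (chr13:14063424-14063797), and it shares this region with the start of *Arid4b*, a chromatin regulator gene. Its log2 fold change of 0.05 ± 0.15 (SE, n = 2 per genotype) was near 0. The mitochondrial thiolase gene *Acat1* had a weak peak with a mean of 13.2.

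**Figure D4:**
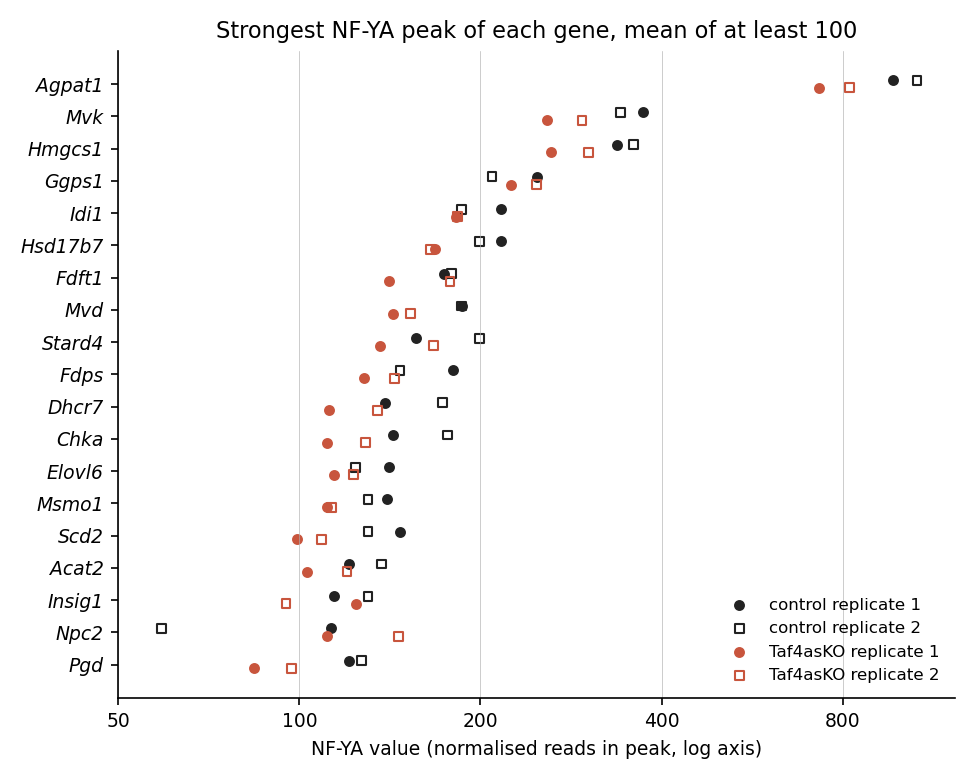
NF-YA values on a log axis for the 19 main peaks whose mean was 100 or more, ordered by mean, in control (black) and Taf4asKO (red) libraries, with replicate 1 as filled circles and replicate 2 as open squares. Red symbols lie left of both black symbols in 14 of 19 peaks, where 59.0% of all 971 peaks of this strength show this pattern, and the control replicates lie far apart at *Npc2*.

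From squalene to cholesterol, the strongest peak belonged to *Hsd17b7*, which encodes a 3-ketosteroid reductase of the pathway. Its values were 216 and 199 in control libraries and 168 and 165 in Taf4asKO libraries (chr1:169969110-169969521), with a log2 fold change of −0.31 ± 0.14 (SE, n = 2 per genotype). *Dhcr7*, for 7-dehydrocholesterol reductase, had 139 and 173 in control libraries and 112 and 135 in Taf4asKO libraries (chr7:143829994-143830265). This peak lies 6985 bases from the start used by the table and 52 bases from that of another annotated transcript. *Msmo1*, for the sterol C4-methyl oxidase, had 140 and 130 in control libraries and 111 and 113 in Taf4asKO libraries (chr8:64733487-64733861). In all 3 peaks both Taf4asKO values were lower than both control values, as in 59.0% of all 971 peaks whose mean was 100 or more.

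Other genes of this branch had weaker peaks, and in 2 of them both Taf4asKO values were above both control values. *Lss*, for lanosterol synthase, had 48 and 55 in control libraries and 59 and 78 in Taf4asKO libraries (chr10:76531408-76531673). *Tm7sf2*, for a sterol C14-reductase, had 27 and 20 in control libraries and 31 and 41 in Taf4asKO libraries (chr19:6067802-6068023), where the lowest value rests on about 6 reads. No other tested peak of the list showed this pattern, which was found in 19.3% of all tested peaks. Among tested peaks with a mean under 100 it was found in 2 of 20 of the list and in 23.5% of all 3775. They had log2 fold changes of 0.39 ± 0.22 and 0.60 ± 0.29 (SE, n = 2 per genotype), and limma gave adjusted p = 0.368 and 0.310. With 1 library left out, *Lss* ran from 0.20, without Taf4asKO replicate 2, to 0.59, without Taf4asKO replicate 1, and *Tm7sf2* from 0.39, without control replicate 2, to 0.80, without control replicate 1. The other peaks were at *Nsdhl*, *Ebp* and *Sqle*, for a sterol dehydrogenase, a sterol isomerase and squalene epoxidase. Their log2 fold changes lay between −0.06 and 0.03, with SE from 0.20 to 0.28.

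The sterol carriers differed from each other in their values. *Stard4*, for a protein that moves cholesterol through the cytosol, had 156 and 199 in control libraries and 136 and 167 in Taf4asKO libraries in a peak 154 bases upstream of its start. *Npc2*, for a cholesterol-binding protein of the lysosome, had 113 and 59 in control libraries and 111 and 146 in Taf4asKO libraries (chr12:84772930-84773288), in a region shared with the start of *Isca2*, an iron-sulphur cluster gene. Groups overlapped at both genes. The *Npc2* log2 fold change of 0.63 ± 0.28 (SE, n = 2 per genotype, limma adjusted p = 0.278) was the largest of all main peaks. It was 0.17 without control replicate 2, where about 18 reads were behind the value, 1.10 without control replicate 1, 0.83 without Taf4asKO replicate 1 and 0.44 without Taf4asKO replicate 2.

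Among desaturases and elongases, *Scd2* had peaks at its start and far upstream. The start peak (chr19:44293693-44294127) had 147 and 130 in control libraries and 99 and 109 in Taf4asKO libraries, and the peak 9317 bases upstream (chr19:44284177-44284536) had 128 and 160 in control libraries and 89 and 99 in Taf4asKO libraries. Groups were apart in both, with log2 fold changes of −0.41 ± 0.17 and −0.60 ± 0.18 (SE, n = 2 per genotype). The upstream value was the lowest fold change of the list (limma adjusted p = 0.139). *Fads1*, for the delta-5 desaturase, had 47 and 52 in control libraries and 33 and 32 in Taf4asKO libraries (chr19:10182722-10182963), with a log2 fold change of −0.59 ± 0.23 and limma adjusted p = 0.225.

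*Elovl6*, for the elongase of saturated chains, had its peak in an intron 3655 bases downstream of the nearest annotated start (chr3:129536234-129536530), with 141 and 124 in control libraries and 114 and 123 in Taf4asKO libraries. The groups were apart by 1 unit. *Elovl1*, an elongase for very long chains, had 40 and 42 in control libraries and 41 and 57 in Taf4asKO libraries (chr4:118427905-118428119), and these overlapped. *Scd1*, the *Scd2* paralogue, *Elovl5* and *Fads2* had main peaks with means of 86.2, 77.8 and 28.0, all with overlapping groups.

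For the supply of acetyl-CoA and NADPH, *Pgd*, which encodes 6-phosphogluconate dehydrogenase, had 121 and 127 in control libraries and 84 and 97 in Taf4asKO libraries (chr4:149166593-149166850). Its log2 fold change was −0.45 ± 0.17 (SE, n = 2 per genotype), and limma gave adjusted p = 0.214. *Acly*, for ATP-citrate lyase, had 92 and 78 in control libraries and 79 and 101 in Taf4asKO libraries, which overlapped. *Acsl3*, for an acyl-CoA synthetase, had 77 and 72 in control libraries and 64 and 69 in Taf4asKO libraries, and both Taf4asKO values were lower.

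In lipid assembly, the main *Agpat1* peak (chr17:34603503-34604484) had the highest values of the list, with 971 and 1063 in control libraries and 732 and 821 in Taf4asKO libraries. It was centred 269 bases upstream of *Agpat1* and lay within 1000 bases of the start of *Rnf5*, for an E3 ubiquitin ligase. The log2 fold change was −0.39 ± 0.11 (SE, n = 2 per genotype), with limma adjusted p = 0.110. A weak peak 65 bases upstream of another *Agpat1* transcript start (chr17:34605734-34605858) had 18 and 7 in control libraries and 16 and 23 in Taf4asKO libraries. These overlapped, and the log2 fold change of 0.71 ± 0.47, the highest of the list, rests on about 2 reads in control replicate 2. It was 0.088 without that library and 1.34 without control replicate 1.

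*Chka*, for the first enzyme of phosphatidylcholine synthesis from choline, had 143 and 176 in control libraries and 111 and 129 in Taf4asKO libraries (chr19:3851393-3851964). Groups did not overlap, and the log2 fold change was −0.40 ± 0.17 (SE, n = 2 per genotype; limma adjusted p = 0.263). It was −0.26 without control replicate 2 and −0.55 without control replicate 1. *Pcyt2*, for an enzyme of phosphatidylethanolamine synthesis, had a mean of 16.5, and the only peak of *Gpam*, for a mitochondrial acyltransferase, had a mean of 4.75 and was not tested. The 10 peaks below the minimum had means from 2 to 9.25, and 9 of them were second or further peaks of genes with a stronger one.

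A second list of 58 other genes of sterol and lipid metabolism, also chosen with earlier results of these data known, was read in the same way. Peaks were assigned to 17 of them (29.3%, against 14.6% of all protein-coding genes), 22 in all, of which 19 were tested and 0 passed in limma (lowest adjusted p = 0.111). The strongest was at *Osbp*, for oxysterol-binding protein, with 885 and 819 in control libraries and 662 and 718 in Taf4asKO libraries. *Hsd17b12*, for a reductase of fatty acid elongation, had 535 and 616 in control libraries and 392 and 444 in Taf4asKO libraries. Taf4asKO values were lower than both control values at both genes and in 6 of the 19 tested peaks, against 28.6% of all tested peaks. In 6 others they were higher, against 19.3%, among them *Ptdss2*, a phosphatidylserine synthase gene, with 37 and 26 in control libraries and 55 and 57 in Taf4asKO libraries.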

How the data were processed

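NF-YA CUT&RUN libraries were sequenced as read pairs of 36 bases. Per the submitters' processing notes, the authors trimmed reads (Trimmomatic 0.39), aligned them to mm10 (STAR 2.7.11a) and removed duplicates (Picard 3.1.1), and the study's methods give other versions of STAR, Picard and DESeq2. They called peaks per library against IgG, merged them, and counted reads. The deposited value is a score: the reads per peak normalised by the authors with DESeq2 (1.36.0 in the notes) and rounded. Peaks were assigned by the authors to the nearest gene start, and coordinates are used as given.

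The members and lists were chosen with earlier results of these data known. Of the 8 libraries in the labels, the 4 NF-YA libraries were analysed. The value of 1 read was estimated from the regular steps between values, at 1.04, 3.26, 0.431 and 0.681. In Taf4asKO libraries it is below the rounding unit, so reads could not be recovered and no count model was run. limma 3.58.1 (R 4.3.3) with a mean-variance trend was fitted to log2(value + 1) of all peaks whose mean was 10 or more, and p-values were adjusted with the Benjamini-Hochberg method over all of them. The fit was tested on simulated data. Fold changes on this scale understate those of low peaks. Intervals for shares are 95% Wilson intervals and do not include counting error within peaks.

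Each gene's strongest peak is its main peak. Main peaks whose mean was 100 or more and the 5 largest increases and decreases are given in every library, and other peaks were named for their role. Sequences are from the GRCm38 genome and RefSeq promoters, leaving out untranslated regions. The *Mvd*, *Chka*, *Insig1*, upstream *Scd2* and *Fasn* stretches were chosen after values were seen. Transcript starts are from GENCODE M21. Python 3.11.15, pandas 2.3.3, statsmodels 0.14.6 and pysam 0.24.0 were used.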

Additional observations from a re-analysis of the deposited data

How the results depend on the processing

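No setting but one passed any of the 40 tested peaks: weighting each value by its reads passed 2, with 350 calls over all peaks against 45 in the fit without weights. Over all peaks the calls were 124 with equal library medians, 78 when centred on strong peaks (a mean of 100 or more), 131 at a threshold of 0.1 and 0 without the minimum. Leaving out a library gave 0 in each case. The median log2 fold change of the 40 was −0.029 with equal totals and 0.060 when centred on strong peaks, scalings that moved the median of all peaks by 0.14 and 0.23. It ran from −0.28 to −0.10 with a library left out. The difference from the median of all peaks, −0.13 with all libraries, ran from −0.19 to −0.084 with a library left out and was −0.22 without the minimum. The cause was not tested. A fit that took the replicate number as a block called 31 peaks, 0 of them among the 40, and changed no call of a named peak. Deviations of same-numbered libraries had a correlation of −0.088 over tested peaks, and the labels do not say what a number shares, so no pairing was assumed. Among peaks of the list, CCAAT was found in 97.5% of the 40 tested and the looser SRE in 16.0% of the 50.

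Of 25 named peaks, the sign of small changes turned as follows. Centred on strong peaks, log2 fold changes were 0.096 for *Idi1*, 0.076 for *Fdft1*, 0.0065 for *Stard4*, 0.073 for *Elovl6*, 0.021 for *Acat2* and 0.066 for *Insig1*. With equal totals *Idi1* was at 0.0095. *Ggps1* was at −0.0028 with weights. With a library left out, *Ggps1* ran from −0.070 to 0.18, *Fdft1* from −0.32 to 0.012 and *Insig1* from −0.35 to 0.026. The log2 fold change of 16 of the 25 moved by over 1.5 times when some library was left out. A library left alone in its group was assumed to vary like the others. A count model was not run, as the values are not raw counts. The reads of control replicate 2 limit peaks with low values.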
